A study of Homo sapiens with 6 samples.

Results

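Common fragile site genes and other very long genes were examined as a set of 47, namely genes such as FHIT, WWOX, LRP1B and DMD whose transcribed spans run from 0.5503 to 2.474 Mb. The 47 were listed by name, and the nascent DNA peaks that share at least 1 base with a gene's span in GENCODE release 44 (genome build hg38) were assigned to that gene. By this rule 167 of 10285 control peaks and 121 of 8555 ERCC6L2-/- peaks lay in the 47 genes, which together span 66.21 Mb. FAM155A was found under its newer name NALF1, and the other 46 under the listed name.

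U2OS cells, a human osteosarcoma line, were given the thymidine analogue BrdU for 2 h, and DNA made in that time was pulled down with an antibody to BrdU and sequenced. The control group was U2OS of wild-type genotype (3 samples), and the ERCC6L2-/- group was U2OS with the ERCC6L2 gene disrupted (3 samples); both groups received the same BrdU pulse and no other treatment. ERCC6L2 is a DNA translocase of the SNF2 family whose loss in people causes a bone marrow failure syndrome. Disrupted lines of the study were single-cell clones made with CRISPR/Cas9, and which clone gave these samples is not given in the sources used here. A peak is a place where labelled DNA piled up above its surroundings, and each group's 3 samples were merged into 1 consensus list. No value per sample was therefore at hand: the intervals below cover counting error over peaks only, no p-value is given, and a difference between the lists could not be set against the spread between samples.

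Common fragile sites are regions that break or gap on mitotic chromosomes when replication is slowed. Many lie in genes of a megabase or more, which replicate late in S phase, hold few replication origins and can still be under transcription when the replication fork arrives. The comparison asked how nascent DNA peaks were spread over such genes with and without ERCC6L2.

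The sequences under the peaks fell into recognisable kinds, and those that the results below turn on are shown first. The first was a purine tract, a run of at least 30 purines (A or G) on 1 strand, which reads as pyrimidines (C or T) on the other. The following are the plus strand of hg38, with the tract in capitals and up to 20 flanking bases on a side in lower case; runs longer than the display were cut at 150 bases. They are the peak with the longest tract that both lists share, the 2 longest among control-only peaks and the 2 longest among ERCC6L2-/- only peaks, with the longest tract of WWOX added after its values were seen because it is a fragile site gene.

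RBFOX1, shared, chr16:7229706-7229855: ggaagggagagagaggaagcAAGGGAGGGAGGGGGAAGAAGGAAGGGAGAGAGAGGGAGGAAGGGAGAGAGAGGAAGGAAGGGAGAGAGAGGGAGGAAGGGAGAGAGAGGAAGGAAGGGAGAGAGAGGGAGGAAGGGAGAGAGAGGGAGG
WWOX, shared, chr16:78725885-78726032: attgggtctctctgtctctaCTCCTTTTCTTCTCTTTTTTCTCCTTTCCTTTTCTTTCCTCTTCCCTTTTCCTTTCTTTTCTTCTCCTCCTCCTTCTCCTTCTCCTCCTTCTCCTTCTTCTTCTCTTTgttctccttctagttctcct
CTNNA3, control-only, chr10:66360578-66360727: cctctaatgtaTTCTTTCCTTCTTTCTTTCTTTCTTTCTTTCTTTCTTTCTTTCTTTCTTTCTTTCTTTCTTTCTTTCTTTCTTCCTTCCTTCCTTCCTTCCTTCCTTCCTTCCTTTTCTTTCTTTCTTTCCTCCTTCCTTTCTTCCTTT
PRKG1, control-only, chr10:51627807-51627956: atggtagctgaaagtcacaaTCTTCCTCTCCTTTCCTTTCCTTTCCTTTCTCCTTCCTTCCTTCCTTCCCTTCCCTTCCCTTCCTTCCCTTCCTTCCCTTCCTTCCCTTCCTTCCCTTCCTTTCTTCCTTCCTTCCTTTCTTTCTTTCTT
CTNNA3, ERCC6L2-/- only, chr10:66265992-66266141: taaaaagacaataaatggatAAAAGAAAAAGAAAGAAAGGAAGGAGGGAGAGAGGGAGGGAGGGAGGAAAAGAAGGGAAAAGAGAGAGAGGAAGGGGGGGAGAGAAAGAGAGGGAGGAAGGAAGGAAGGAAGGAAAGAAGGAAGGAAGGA
RBFOX1, ERCC6L2-/- only, chr16:5616512-5616659: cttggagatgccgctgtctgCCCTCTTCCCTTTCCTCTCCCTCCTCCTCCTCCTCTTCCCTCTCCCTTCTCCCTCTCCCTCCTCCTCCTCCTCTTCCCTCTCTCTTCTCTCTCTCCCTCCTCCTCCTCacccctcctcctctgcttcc

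The RBFOX1 tract shown first was 391 bases long in full. Among the control-only peaks, the tracts were 304 bases in CTNNA3 and 291 in PRKG1. The ERCC6L2-/- only peaks had shorter ones, with 167 bases in CTNNA3 and 108 in RBFOX1. All of these peaks lay in introns. The shift given for a peak is the shortest whose match to itself came close to the best, over up to 700 central bases. This shift was 3 or 4 bases in each. The best match was 71.11% of positions in the shared RBFOX1 peak and 70.27% in PRKG1. In the others it lay between 43.30% and 54.60%, short of the 70% used further below for a repeat.

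A second kind was the tandem repeat with a longer unit, seen above all in PTPRN2. In the following 2 PTPRN2 peaks, the 2nd and 3rd widest of the shared peaks at the ceiling of the score, 1 repeat unit is in capitals.

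PTPRN2, shared, 46-base unit, chr7:158331222-158331341: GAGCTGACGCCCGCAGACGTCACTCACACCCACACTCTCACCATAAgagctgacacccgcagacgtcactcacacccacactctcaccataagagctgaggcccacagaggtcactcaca
PTPRN2, shared, 38-base unit, chr7:158147973-158148092: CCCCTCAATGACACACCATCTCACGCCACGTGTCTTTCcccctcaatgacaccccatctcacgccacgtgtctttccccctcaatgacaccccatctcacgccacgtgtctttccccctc

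Over its central 700 bases, the first peak (chr7:158330077-158332486, 2410 bases) matched itself at 92.64% of positions at the best shift, with a given shift of 46 bases. For the second (chr7:158146950-158149116, 2167 bases) the values were 96.93% and 38 bases. The widest such peak, also in PTPRN2 (chr7:158339750-158342494, 2745 bases), is not shown. It matched itself at 66.97% of positions in the control list, and its ERCC6L2-/- partner at 79.66%. The single peak of FHIT, found only in ERCC6L2-/- cells, was of neither kind. Its central 120 bases are given because FHIT is the gene of the best known fragile site, FRA3B.

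FHIT, ERCC6L2-/- only, chr3:59953121-59953240: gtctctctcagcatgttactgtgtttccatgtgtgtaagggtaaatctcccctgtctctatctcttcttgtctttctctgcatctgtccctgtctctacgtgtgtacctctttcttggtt

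Peaks over the whole set were less dense than over the chromosome arms. The 167 control peaks came to 2.522 peaks per Mb (95% exact Poisson interval 2.154–2.935) and the 121 ERCC6L2-/- peaks to 1.827 (1.516–2.184). Chromosomes 1 to 22 and X outside alpha-satellite, the repeat of centromeres, held 3.081 and 2.327 peaks per Mb. The 275 other protein-coding genes of at least 500 kb held 2.167 (1.969–2.380) and 1.657 (1.485–1.845), so the 47 genes overlapped other long genes in their intervals and lay below the arms in both lists.

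A few genes held most of the peaks. PTPRN2, SORCS2, TMEM132D and RBFOX1 had 95 of the 167 control peaks (56.89%) and 78 of the 121 ERCC6L2-/- peaks (64.46%) on 7.408% of the span. The other 43 genes, set apart after these counts were seen, had 72 control peaks (1.174 per Mb) and 43 ERCC6L2-/- peaks (0.7014 per Mb). The median gene had 0.8367 control and 0.4338 ERCC6L2-/- peaks per Mb, and 17 of the 47 (36.17%) had no peak in either list. Among the 275 other long genes, 43.6% had none. Those 275 genes span 202.1 Mb, so they are shorter on average than the 47. At equal density a shorter gene is more often empty, so these 2 shares are not like for like.

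**Figure D1:**
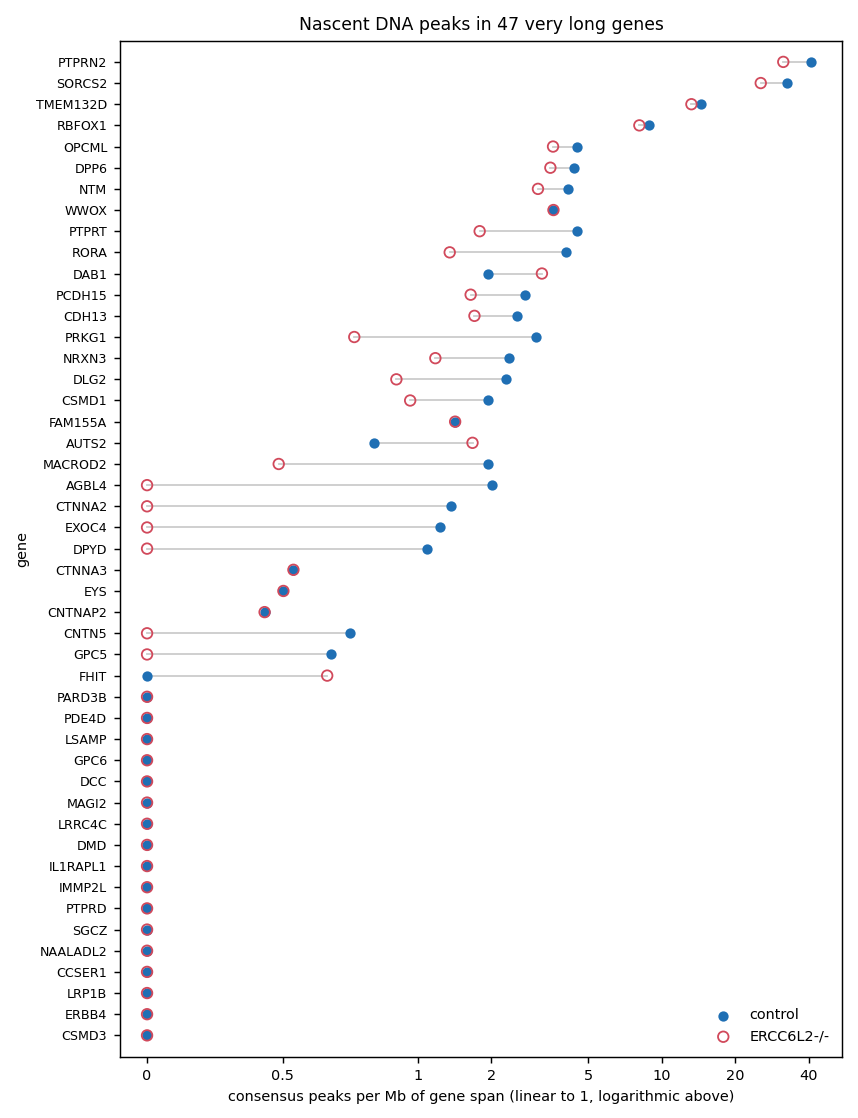
Consensus peaks per Mb of gene span (horizontal axis, linear to 1 and logarithmic above) for each of the 47 genes, with control as filled points and ERCC6L2-/- as open circles, 1 merged list each. PTPRN2 and SORCS2 stand highest at 41.00 and 32.71 control peaks per Mb, and 17 genes are at 0 in both lists.

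Enzymes included several of the best known fragile site genes. WWOX (FRA16D), an oxidoreductase with WW domains that is lost in many tumours, had 4 control peaks and 4 ERCC6L2-/- peaks, or 3.593 per Mb in each list (interval 0.9790–9.200). All 4 were shared, and 3 of the 4 held a purine tract, of 55, 86 and 108 bases. Among the 47 genes WWOX was thus one of those with peaks but none specific to a list. Within pairs the lists did differ. A control peak at the score ceiling was paired with an ERCC6L2-/- peak of 209.9, and another pair was 721 and 404 bases wide.

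FHIT, a diadenosine triphosphate hydrolase at FRA3B, had no control peak on its 1.504 Mb. There, 0 peaks allow up to 1.994 per Mb by a limit of 3 peaks over the span, and 2.452 by the exact Poisson interval. The nearest control peak was 744.0 kb away, and 3.342 Mb separated the control peaks on its 2 sides. Its 1 ERCC6L2-/- peak (chr3:59952977-59953384, 408 bases) lay in an intron at 86.31% of the way from the 5′ end, at the score ceiling and with a longest purine tract of 13 bases. A difference of 1 peak against 0 is within counting error.

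MACROD2, a hydrolase of ADP-ribose, had 4 control peaks (1.944 per Mb) and 1 ERCC6L2-/- peak (0.4859 per Mb). The 3 control-only peaks and the shared one all held a purine tract, and all 4 lay in introns in the 3′ part of the gene, from 57.15% to 99.01% of its length. The 4 control peaks were all at the score ceiling, whereas the ERCC6L2-/- peak had a score of 221.9.

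AGBL4, a carboxypeptidase that trims glutamate from tubulin, had 3 control peaks (2.012 per Mb), all control-only, and no ERCC6L2-/- peak. These 3 lay close together, between 96.40% and 98.87% of the gene, with longest tracts of 57, 26 and 30 bases. PRKG1, the cGMP-dependent protein kinase, had 4 control peaks (3.059 per Mb, interval 0.8335–7.833), 3 of them control-only, and 1 ERCC6L2-/- peak (0.7648 per Mb, interval 0.01936–4.261). DPYD, which degrades pyrimidines and fluorouracil, had 1 control-only peak and no ERCC6L2-/- peak. In these 3 genes ERCC6L2-/- counts were lower, on small numbers with overlapping intervals.

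IMMP2L, a mitochondrial inner membrane peptidase and fragile site gene, PDE4D, a cAMP phosphodiesterase, and NAALADL2, a peptidase-like protein, had no peak in either list. Over the 9 enzyme genes there were 16 control and 7 ERCC6L2-/- peaks, 10 and 1 of them list-specific. Over the whole lists 32.8% and 18.9% of peaks were list-specific. The enzyme genes hold few peaks, so no trait of the group is read from these counts.

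Receptors were split between the emptiest and the fullest genes of the set. LRP1B, a large lipoprotein receptor at a fragile site, ERBB4, a receptor tyrosine kinase, PTPRD, a receptor phosphatase, DCC, a netrin receptor, and IL1RAPL1, a synaptic receptor of the interleukin-1 family, had no peak in either list. For LRP1B, 0 peaks on 1.900 Mb allow up to 1.579 peaks per Mb (1.942 by the exact Poisson interval). Its nearest control peak was 283.1 kb away and its nearest ERCC6L2-/- peak 3688 kb away. PTPRD sat in a stretch of 20.97 Mb without an ERCC6L2-/- peak and of 8.218 Mb without a control peak.

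PTPRN2, a receptor phosphatase of secretory vesicles, had the most peaks of the 47 genes. It held 43 control peaks (41.00 per Mb, interval 29.67–55.23), 13 of them control-only, and 33 ERCC6L2-/- peaks (31.47 per Mb, interval 21.66–44.19), 3 of them ERCC6L2-/- only. All of its peaks were intronic, and they were spread from 6.273% to 99.52% of the gene. Of these, 18 of 43 control and 18 of 33 ERCC6L2-/- peaks were tandem repeats. Their shifts ran from 2 to 90 bases (median 33) in the control and from 2 to 271 bases (median 36) in the ERCC6L2-/- list. A purine tract was held by 1 peak in each list. The gene lies 0.7581 Mb from the end of chromosome 7 and has a GC content of 51.40%.

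SORCS2, a sorting receptor for neurotrophins, had 18 control peaks (32.71 per Mb, interval 19.39–51.70) and 14 ERCC6L2-/- peaks (25.44 per Mb, interval 13.91–42.69), with 5 control-only and 1 ERCC6L2-/- only. Its span had the highest GC content of the set, 53.70%. PTPRT, a receptor phosphatase of the same superfamily as PTPRD, had 5 control peaks (4.475 per Mb), 3 of them control-only, and 2 ERCC6L2-/- peaks (1.790 per Mb), both shared. The difference between lists in peaks per Mb was greatest in PTPRN2 (-9.54, ERCC6L2-/- minus control) and SORCS2 (-7.27), followed by RORA (-2.70), PTPRT (-2.69) and PRKG1 (-2.29). The intervals of the 2 lists overlapped in each of the 5. They treat the lists as separate counts although shared peaks are in both, so their overlap does not measure the difference.

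Genes of cell adhesion and the membrane, 17 in all, held 47 control and 34 ERCC6L2-/- peaks. TMEM132D, a transmembrane protein of neurons, had 12 control peaks (14.42 per Mb) and 11 ERCC6L2-/- peaks (13.22 per Mb), of which 3 and 2 were list-specific. CNTNAP2, a neurexin-like protein and one of the longest human genes, had 1 peak in each list on 2.305 Mb, a shared one of 1699 and 1641 bases with a 13-base repeat, at 96.09% of the gene. OPCML and NTM, neighbouring adhesion genes of the IgLON family on chromosome 11, had 5 and 4 control peaks and 4 and 3 ERCC6L2-/- peaks, with 1 control-only peak in each gene.

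The other adhesion genes had between 0 and 5 peaks in each list. DPP6, an auxiliary subunit of potassium channels, had 5 control and 4 ERCC6L2-/- peaks, PCDH15, a protocadherin of hair cells, had 5 and 3, and CDH13, T-cadherin, had 3 and 2. NRXN3, a presynaptic neurexin, and CSMD1, a complement regulator, each had 4 control peaks, 3 of them control-only, and 2 ERCC6L2-/- peaks, 1 of them ERCC6L2-/- only. EYS, a photoreceptor protein, and FAM155A, a subunit of a sodium leak channel, had 1 shared peak each. CNTN5, a contactin, and GPC5, a glypican, had 1 control-only peak each, and CSMD3, LSAMP, GPC6 and LRRC4C had none in either list.

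Scaffold and cytoskeleton genes held 12 control and 8 ERCC6L2-/- peaks over 9 genes. DMD, which encodes dystrophin, had no peak in either list on 2.242 Mb. This allows up to 1.338 peaks per Mb (1.645 by the exact Poisson interval), and the nearest control peak was 4946 kb away. DMD and IL1RAPL1 lay in the same stretch of 18.41 Mb of the X chromosome without a control peak, whereas ERCC6L2-/- peaks lay 292.1 kb from DMD and 848.0 kb from IL1RAPL1. SGCZ, a sarcoglycan, MAGI2, a synaptic scaffold, and PARD3B, a polarity protein, were also without a peak.

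DAB1, an adaptor of reelin signalling, was 1 of 3 genes with more ERCC6L2-/- than control peaks, the others being AUTS2 and FHIT. It had 3 control peaks (1.933 per Mb, interval 0.3986–5.649) and 5 ERCC6L2-/- peaks (3.222 per Mb, interval 1.046–7.518), with 1 control-only, 3 ERCC6L2-/- only and 2 shared. CTNNA3, an alpha-catenin, had 1 control-only peak and 1 ERCC6L2-/- only peak at different places in its introns, both with long tracts. DLG2, a synaptic scaffold, had 5 control peaks, 3 of them control-only, and 2 ERCC6L2-/- peaks, and 4 of the 5 held a tract. CTNNA2 had 2 control-only peaks and EXOC4, of the exocyst, 1, with no ERCC6L2-/- peak in either gene.

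Of the 4 remaining genes, RBFOX1, a splicing factor and the longest of the 47 at 2.474 Mb, had 22 control peaks (8.894 per Mb) and 20 ERCC6L2-/- peaks (8.086 per Mb). Of these, 5 were control-only and 3 ERCC6L2-/- only, and 8 and 6 held a purine tract. RORA, a nuclear receptor, had 3 control peaks, 2 of them control-only, and 1 ERCC6L2-/- peak. AUTS2, a partner of Polycomb proteins, had 1 and 2, and CCSER1, a gene of poorly known function at a fragile site, had none.

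**Figure D2:**
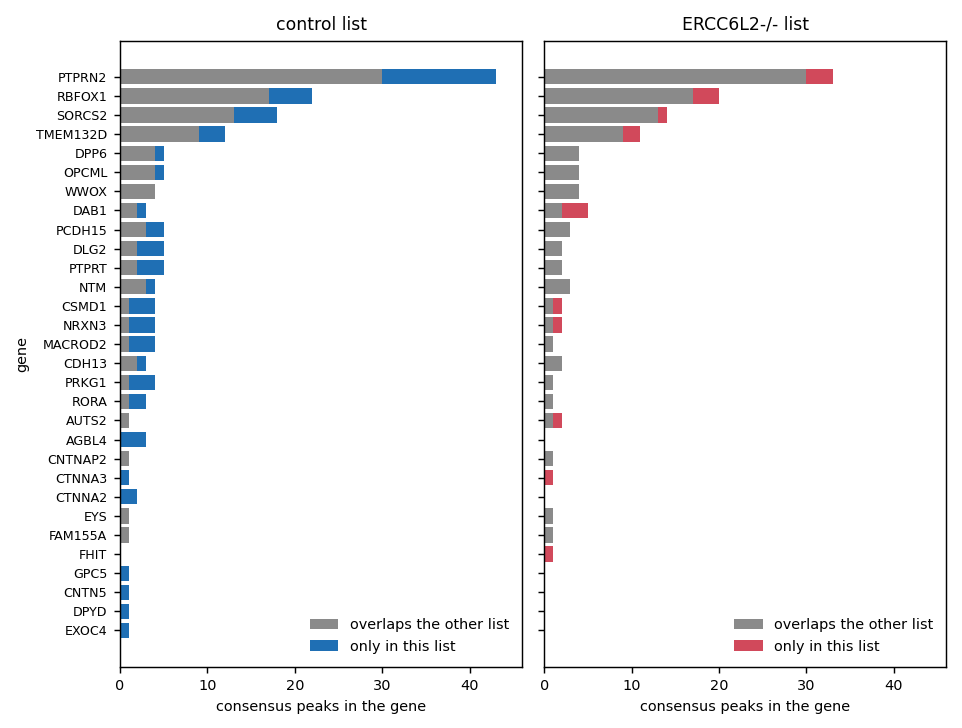
Number of consensus peaks (horizontal axis) in each of the 30 genes with a peak, split into those that overlap the other list (grey) and those found only in the control list (left, blue) or only in the ERCC6L2-/- list (right, red). Control-only peaks are found in 24 genes and ERCC6L2-/- only peaks in 10.

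List-specific peaks were more often control peaks here, as they were genome-wide. Of the 167 control peaks, 63 (37.72%, Wilson interval 30.73–45.27) had no overlapping ERCC6L2-/- peak, against 32.8% over the whole list, 35.70% over the arms and 35.84% in other long genes. Of the 121 ERCC6L2-/- peaks, 17 (14.05%, 8.961–21.35) had no overlapping control peak, against 18.9%, 14.63% and 16.12%. Both shares in the 47 genes held the background share within their intervals.

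The ratio of ERCC6L2-/- to control peaks was 0.7246 in the 47 genes, 0.7648 in other long genes, 0.7554 over the arms and 0.8318 over the whole lists. It was 0.8211 in the 4 genes with most peaks and 0.5972 in the other 43, in which 51.39% of control peaks (40.07–62.57) were control-only. More control than ERCC6L2-/- peaks were found in 22 of the 47 genes, more ERCC6L2-/- peaks in 3 and equal numbers above 0 in 5. Among the 275 other long genes these were 72, 24 and 59. Counts of genes also depend on gene length, and the 275 are shorter on average. Since the 4 genes were set apart by their counts, the values for the 4 and the other 43 describe the set and are no comparison.

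The 104 shared peaks paired 1 to 1, and the control peak was the wider in 79 pairs and the ERCC6L2-/- peak in 24. Median widths were 798.5 and 761.5 bases. Outside the 47 genes on the arms, shared peaks had medians of 738.0 (control) and 690.0 bases (ERCC6L2-/-). Both peaks of a pair were at the score ceiling in 62 pairs, the control peak alone in 24, the ERCC6L2-/- peak alone in 0 and neither in 18. Control peaks were more often at the ceiling over the whole list too, with 71.40% against 61.72%, so scores differed between the lists well beyond these genes. How deeply each sample was sequenced is unknown here.

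**Figure D3:**
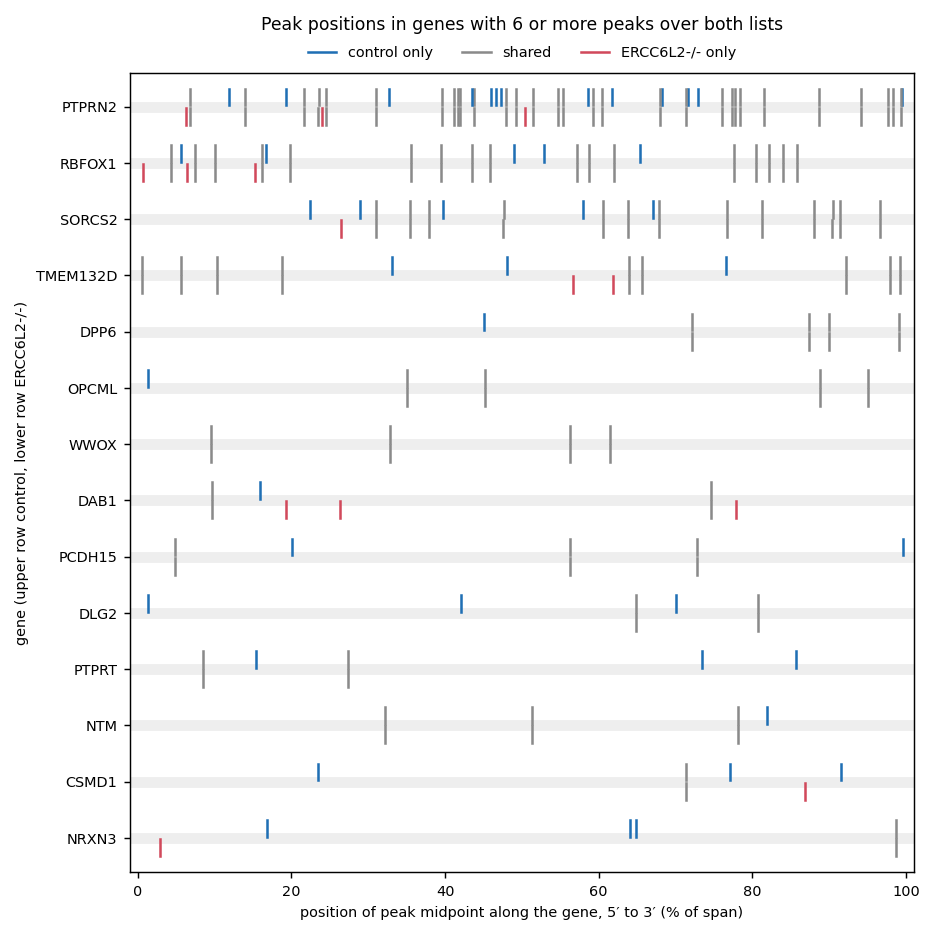
Position of each peak midpoint along its gene from 5′ to 3′ (% of span) in the 14 genes with 6 or more peaks over both lists, with control peaks in the upper row of each gene and ERCC6L2-/- peaks in the lower. Shared peaks (grey) line up between the rows, as in all 4 peaks of WWOX, and list-specific peaks (blue and red) lie among them.

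Within the genes, peaks were almost wholly intronic, as most of the span is. Introns held 162 of 167 control and 118 of 121 ERCC6L2-/- peaks, while exons make up 0.9454% of the span. Only 2 peaks in each list lay within 1 kb of an annotated transcript start. Coding sequence was touched by a control-only peak in PCDH15 and a shared peak in DLG2. Cut into parts of equal length from the 5′ end, the genes held 43, 57 and 67 control peaks and 34, 36 and 51 ERCC6L2-/- peaks, and without the 4 genes with most peaks 19, 19 and 34 control peaks and 12, 7 and 24 ERCC6L2-/- peaks.

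Peak density went with the base composition of the gene. The 17 genes without a peak had GC contents of 33.74% to 37.59% (median 36.16%), the 30 with a peak a median of 38.98%, and the 4 with most peaks a median of 47.04%. Across the 47 genes, Spearman's rho between GC content and peaks per Mb was 0.71 for the control and 0.74 for the ERCC6L2-/- list, and across the 275 other long genes it was 0.53 and 0.58. Genes are not independent samples and both lists cover the same genes, so these values are descriptions. Distance to the nearer chromosome end gave -0.48 and -0.49 in the 47 genes, and gene length gave -0.27 and -0.20. In the 275 other long genes, distance gave -0.26 and -0.23 and length 0.05 and 0.01.

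Densities were set beside other long genes of like GC content, in ranges with limits at 37%, 39%, 42% and 46%. The intervals overlapped in each range below 46% but not from 46% upward. Below 37% GC, 19 of the 47 genes had 0.4900 control peaks per Mb (interval 0.2679–0.8222) and 0.2100 ERCC6L2-/- peaks (0.07707–0.4571), and 82 other long genes had 0.7139 (0.5245–0.9493) and 0.4405 (0.2950–0.6326). Between 39% and 42%, the values were 2.437 (1.468–3.806) and 1.796 (0.9819–3.013) in 6 genes, against 2.243 (1.845–2.702) and 1.819 (1.463–2.236) in 71. From 46% upward, PTPRN2 and SORCS2 together had 38.15 control peaks per Mb (29.18–49.00) and 29.39 ERCC6L2-/- peaks (21.60–39.09). The 14 other long genes in that range had 14.66 (12.31–17.33) and 10.91 (8.900–13.25). From 50% upward, a limit set after the values were seen, the same 2 genes had 38.14 (29.18–48.99) and 29.39 (21.59–39.08). The 4 other long genes there had 29.98 (23.58–37.58) and 23.59 (17.95–30.42), with overlapping intervals. Single genes among these 4 ran from 19.12 to 40.68 control peaks per Mb. These intervals do not cover the spread between genes.

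**Figure D4:**
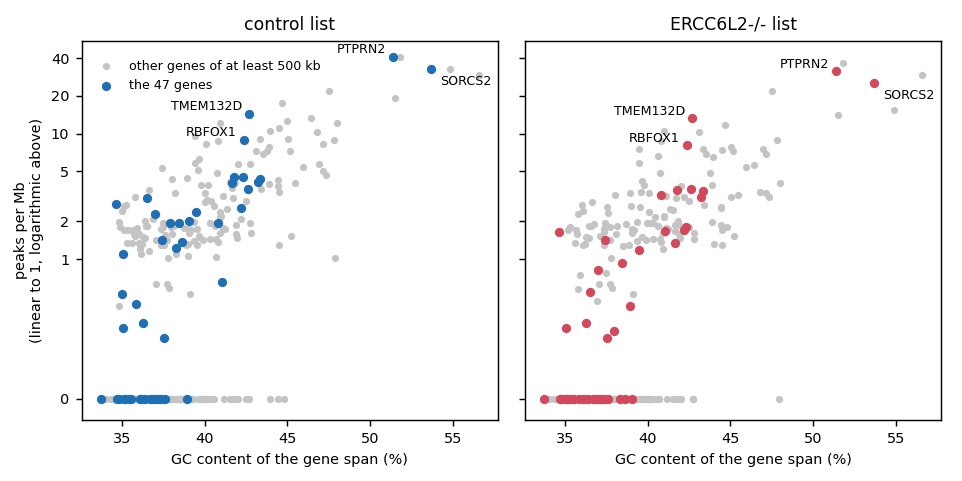
GC content of the gene span (horizontal axis, %) against peaks per Mb (vertical axis, linear to 1 and logarithmic above) in the control list (left) and the ERCC6L2-/- list (right), with the 47 genes in colour and 275 other protein-coding genes of at least 500 kb in grey. Density is higher in genes of higher GC content in both lists, with the 17 genes without a peak all at or below 37.59% GC.

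The peaks themselves were richer in GC than the genes that hold them. Median GC content was 48.19% (quartiles 45.29–53.88) for control and 48.94% (46.18–54.84) for ERCC6L2-/- peaks, against 37.57% for consecutive 700-base windows over the same 47 genes. In the 43 genes without the densest 4, the medians were 47.22% and 48.01%, against 37.14% for their windows.

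Purine tracts were found more often in control-only than in shared peaks. A tract of at least 30 bases lay in 30 of 63 control-only peaks (47.62%, 35.78–59.73), 21 of 104 shared control peaks (20.19%, 13.60–28.90) and 4 of 17 ERCC6L2-/- only peaks (23.53%, 9.555–47.26), and in 3.635% of the 700-base windows. The intervals of control-only and shared peaks did not overlap. With tracts of at least 50 bases the shares were 33.33% (22.95–45.63) and 17.31% (11.24–25.71), and these intervals overlapped. Outside the 47 genes on the arms the shares were 45.25% of control-only, 23.02% of shared control and 27.58% of ERCC6L2-/- only peaks, so the contrast is also found genome-wide and is not particular to these genes. Without the 4 genes with most peaks, the shares were 59.46% (43.49–73.65) of control-only and 34.29% (20.83–50.85) of shared control peaks, whose intervals overlap. Control-only peaks were also narrower, with a median of 550.0 bases against 798.5 for shared control peaks. Outside the 47 genes on the arms these medians were 547.0 and 738.0 bases.

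Tandem repeats were here peaks whose central bases, up to 700, match themselves at 70% or more of positions at some shift of 2 to 300 bases. They were 37 of the 167 control peaks (22.16%) and 35 of the 121 ERCC6L2-/- peaks (28.93%), against 0.1660% of windows. By class, they were 25.96% of shared control (18.50–35.14), 15.87% of control-only (8.857–26.81) and 29.41% of ERCC6L2-/- only peaks (13.28–53.13), with overlapping intervals. Outside the 47 genes on the arms, these shares were 20.79% (19.74–21.88), 7.416% (6.540–8.398) and 13.68% (11.64–16.02), whose intervals did not overlap. The 4 genes with most peaks held 28 of the 37 control and 27 of the 35 ERCC6L2-/- repeats. In these 4 genes, 1.627% of windows were tandem repeats, against 0.04911% in the other 43. Repeats were 20 of 69 shared control and 8 of 26 control-only peaks in the 4 genes. In the other 43 they were 7 of 35 and 2 of 37. A lower control-only share was thus seen in the other 43 but not in the 4, with overlapping intervals in both. A purine tract or a tandem repeat was present in 50.90% of control and 47.11% of ERCC6L2-/- peaks.

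**Figure D5:**
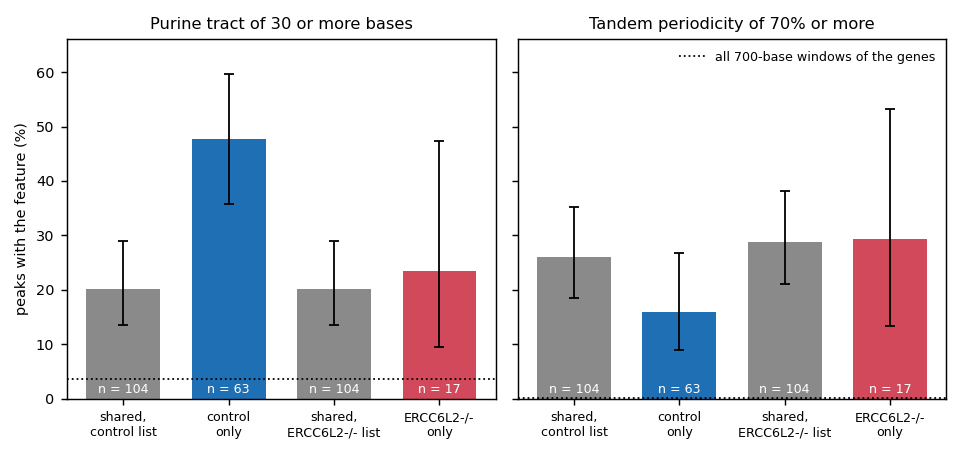
Share of peaks in the 47 genes (%) with a purine tract of 30 or more bases (left) or a tandem periodicity of 70% or more (right), by class, with 95% Wilson intervals as bars and the share of all 700-base windows of the genes as a dotted line. Control-only peaks held a tract in 47.62% and shared control peaks in 20.19%, and the intervals of the periodic shares overlap.

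Most peaks consisted mainly of DNA that occurs once in the genome. The median 50-base word of the peak had 1 copy in hg38 in 153 of 167 control peaks and 107 of 121 ERCC6L2-/- peaks. By class this held for 58 of 63 control-only and 14 of 17 ERCC6L2-/- only peaks. At least 90% of words had 1 copy in 118 of 167 control peaks (70.66%) and 80 of 121 ERCC6L2-/- peaks (66.12%), so the others held more repeated sequence. None of the peaks lay on alpha-satellite.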

How the data were processed

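Nascent DNA was sequenced from 3 control and 3 ERCC6L2-/- samples. The authors used TrimGalore for trimming, BOWTIE2 for alignment to hg38, Picard to remove duplicates, MACS2 to call peaks per sample and MSPC to merge a group's peaks. Thresholds and the handling of reads that align to several places are not given in the sources used here, so reads from elsewhere may have been placed in repeats. Positions and a −log10 p score per merged peak are in the deposited consensus lists. Finite scores end at 310.6, and higher ones are written as infinite (the ceiling). The deposited lists of unique peaks equalled the consensus peaks with no base in common with the other list. Read counts, depth, input and copy number were not used here.

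Gene spans came from GENCODE 44 and sequence from hg38 (pysam 0.24.0). Intervals (95%) were exact Poisson for densities, Wilson for shares and exact binomial for the ratio of peak numbers (scipy 1.17.1), and cover counting error only. Those of density and ratio count a shared peak once in each list, so they do not measure the difference between lists. The upper limit for 0 peaks is 3 peaks over the span, which is lower than the upper end of the exact Poisson interval. The arms were chromosomes 1 to 22 and X without runs of alpha-satellite (windows of 1000 bases with at least 50% self-identity at shifts of 169 to 173 bases, or double that, near the longest run of the chromosome). Of the 47 genes all were counted. Named singly were those with the most peaks per Mb, the most list-specific peaks or the largest differences, those without a peak and 10 established fragile site genes; the rest are given by counts. The genes, role groups and features were chosen with earlier results of these data known, and tandem periodicity was added after the peaks were seen. Overlap, tract and repeat searches were tested on simulated data. Alternatives were the peak midpoint, peaks chained at 10 kb, ceiling peaks, autosomes, other overlap and tract rules, the central 300 bases and each gene left out. Some peak sequences are not reported here.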

Additional observations from a re-analysis of the deposited data

How the results depend on the processing

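Every result kept its value within its own counting interval (for GC content, 1 SD over peaks) except as follows. Keeping the peaks at the score ceiling gave 1.737 control and 1.042 ERCC6L2-/- peaks per Mb and a control-only share of 25.22%. Without peaks that hold a purine tract the control-only share was 28.45%, and with tracts of at least 50 bases 33.33% of control-only peaks held one, whose interval then overlapped that of shared control peaks (17.31%). Without PTPRN2, RBFOX1, SORCS2 and TMEM132D, an alternative chosen after seeing the data, densities were 1.174 and 0.7014 per Mb, the control-only share 51.39% and the tract share of shared control peaks 34.29%. Leaving out each gene in turn gave densities of 1.903–2.613 (control) and 1.350–1.893 (ERCC6L2-/-) peaks per Mb, list-specific shares of 36.59–40.32% and 12.07–15.91%, ratios of 0.6966–0.7378, and tract shares of 45.0–60.0% (control-only), 18.75–28.57% (ERCC6L2-/- only) and 18.0–27.0% (shared control). Leaving out PTPRN2 gave the lowest densities and the highest list-specific and tract shares, and with other genes left out all values stayed within their intervals. The ratio of peak numbers was 0.60 at the score ceiling and 0.8276 (interval 0.6248–1.094) without tract peaks. That interval takes in 1 but counts shared peaks in both lists, so it does not measure the difference. No paired analysis was possible because each group's samples were merged into 1 list. For the same reason the number of peaks, 17 ERCC6L2-/- only peaks above all, sets the precision, and depth is unknown.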
